A study of Mus musculus with 18 samples.

Results

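The 33 genes described here mark or regulate epithelial identity or its loss. Of these, 25 are keratins, junction proteins, regulators, protease system members and integrins of epithelia. The other 8 are factors and structural proteins of the epithelial-mesenchymal transition (EMT). All 33 genes were taken from the 22792 genes of the count tables by gene identity, through their Entrez Gene identifiers. All 33 had a row and all 33 passed the filter on low counts, among 15282 genes tested. Ovol1 passed it only through tumors of the treated groups. The samples were 18 orthotopic 4T1 tumors, 1 tumor and 1 library per mouse. 4T1 is an established line from a mammary carcinoma of a Balb/c mouse. All groups were 8-week-old female Balb/c mice that received 300000 4T1 cells in the mammary fat pad, with tumors collected 21 days later. Dosing ran from day 7 to day 21, and all tumors were collected 3 h after the last dose. Vehicle tumors (n = 5) received no inhibitor, PI3Ki tumors (n = 4) the pan-PI3K inhibitor CLR457 at 20 mg/kg, 2 times per day, and SHP2i tumors (n = 4) the allosteric SHP2 inhibitor SHP099 at 100 mg/kg, 1 time per day. Combo tumors (n = 5) received both. The line comes from 1 tumor and its hosts had their own immune cells, so each library holds RNA of tumor cells and of host cells. The comparisons ask how the epithelial and EMT genes stood after each inhibitor alone, after both, and after both against each one.

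Epithelial cells are held together by E-cadherin (Cdh1) at adherens junctions, by claudins at tight junctions and by desmosomes, which plakoglobin (Jup) and desmoplakin (Dsp) tie to keratin filaments. Luminal mammary cells are rich in the keratins Krt8, Krt18, Krt19 and Krt7, and basal cells in Krt14, Krt5 and Krt17. Transcription factors of the Snail, Zeb and Twist families repress epithelial genes during EMT, in which cells gain vimentin (Vim) and N-cadherin (Cdh2). Grhl2, Ovol1, Elf3 and the splicing regulators Esrp1 and Esrp2 act on the epithelial side.

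Sequencing depth was 21.16 M to 26.62 M counts in a tumor (median 23.52 M). Markers of host cells moved with the groups. The summed level of 10 fibroblast markers was 3985 to 6843 counts per M counts (CPM) in Vehicle, 4705 to 15500 in PI3Ki, 5132 to 12190 in SHP2i and 2372 to 5490 in Combo. The 10 macrophage markers summed to 1919 to 2468 CPM in Vehicle, 1829 to 3424 in PI3Ki, 681 to 1483 in SHP2i and 396 to 1358 in Combo. The 10 endothelial markers summed to 523 to 634 CPM in Vehicle and 209.7 to 273.5 in Combo. The 10 skeletal muscle markers summed to 812 to 1945 CPM in PI3Ki and to at most 102 in any tumor of the other groups. Skin keratinocyte markers were low in all groups, at 8.47 to 40.6 CPM, with Ivl at 0 in all 4 groups. Among markers of differentiated mammary epithelium, Wap was at 0 in Vehicle, SHP2i and Combo. Neutrophil markers summed to 285 to 470 CPM in Vehicle, 509 to 2856 in PI3Ki, 178 to 308 in SHP2i and 94.1 to 327 in Combo. Pericyte and smooth muscle markers summed to 168 to 240 CPM in Vehicle, 247 to 756 in PI3Ki and 83.1 to 179 in Combo. Sums of B and plasma cell, T cell and adipocyte markers overlapped between Vehicle and Combo, and replicate 3 was the highest Combo tumor in each, at 619, 116 and 1625 CPM. Adipocyte sums were 613 to 848 CPM in SHP2i, above all Vehicle tumors (247 to 573 CPM). In Combo against Vehicle, 4 of 10 fibroblast, 8 of 10 macrophage, 6 of 9 neutrophil and 10 of 10 endothelial markers were called lower. So were 2 of 8 pericyte and smooth muscle markers, beside 19.7% of all tested genes. Higher were 2 of 10 fibroblast, 1 of 8 pericyte and smooth muscle and 3 of 8 adipocyte markers, beside 23.9% of all tested genes. The fibroblast and pericyte shares called higher were not above that of all genes, and the pericyte share called lower was close to it. The part of host cells in the results below was not tested. In bulk tissue, fewer cells of a type and less RNA per cell cannot be told apart.

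Snail and Zeb factors are known to bind the E-box CACCTG, so the promoters of the members were searched for it on both strands (CAGGTG is the same site on the other strand). The windows were RefSeq promoters of GRCm38.p6, from 250 bases before to 50 bases after each start site. Of the 14 epithelial members with such a window, 11 (78.6%) held the motif, as did 1 of 5 EMT and mesenchymal members, Snai1. Krt14, Jup and Spint1 had a window without the motif, and Spint1 was called higher in Combo than in Vehicle. Cdh1, Krt19, Krt17, Esrp1, Esrp2, Ovol1, Grhl2, Trp63, St14, Itgb4 and Itga6 had no window, so the 78.6% does not describe them. Among all 27025 genes with a window, 22.6% held the motif. A match is a description and not a bound site. These 4 windows, taken from those with the motif, are shown because their genes had different courses in the tumors, with the motif in capitals. Elf3 and Spint2 were called higher in Combo than in Vehicle, Krt8 was called lower and Epcam was not called.
Elf3, chr1:135258423-135258722, minus strand: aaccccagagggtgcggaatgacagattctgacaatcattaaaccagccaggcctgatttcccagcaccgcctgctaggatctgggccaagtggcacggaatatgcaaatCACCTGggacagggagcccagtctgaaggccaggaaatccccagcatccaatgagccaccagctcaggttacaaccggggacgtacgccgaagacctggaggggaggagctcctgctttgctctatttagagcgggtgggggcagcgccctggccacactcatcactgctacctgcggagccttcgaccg
Spint2, chr7:29281928-29282227, minus strand: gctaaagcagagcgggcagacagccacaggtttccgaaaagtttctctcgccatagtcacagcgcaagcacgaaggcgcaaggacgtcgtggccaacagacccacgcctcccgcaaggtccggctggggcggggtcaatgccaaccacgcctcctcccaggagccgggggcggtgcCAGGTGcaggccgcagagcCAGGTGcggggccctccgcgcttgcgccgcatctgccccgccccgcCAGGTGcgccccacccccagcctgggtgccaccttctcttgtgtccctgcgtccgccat
Krt8, chr15:102004293-102004592, minus strand: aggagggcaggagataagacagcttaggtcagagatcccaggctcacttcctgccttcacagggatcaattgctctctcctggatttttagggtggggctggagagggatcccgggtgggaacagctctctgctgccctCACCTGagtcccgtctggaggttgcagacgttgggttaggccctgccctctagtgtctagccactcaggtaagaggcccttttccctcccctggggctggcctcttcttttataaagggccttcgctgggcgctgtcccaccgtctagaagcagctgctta
Epcam, chr17:87635729-87636028, plus strand: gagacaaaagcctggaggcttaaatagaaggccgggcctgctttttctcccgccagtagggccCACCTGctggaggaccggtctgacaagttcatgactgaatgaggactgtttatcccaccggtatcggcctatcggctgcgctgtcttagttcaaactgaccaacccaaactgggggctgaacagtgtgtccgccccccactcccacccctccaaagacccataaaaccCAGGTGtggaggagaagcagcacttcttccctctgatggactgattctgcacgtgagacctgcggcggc
Counted from the start site, the motif began at base -140 in Elf3, at -111 in Krt8, at -187 and -19 in Epcam, and at -74, -55 and -9 in Spint2.

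Transcripts of both programs were present in Vehicle tumors, in RNA of tumor and host cells together. Which cells they came from was not tested. Lengths were taken as all annotated exons of a gene merged, which can exceed its main transcript. Per kb of exon, Vim stood at 742 CPM in the Vehicle mean, Krt8 at 286 CPM and Krt18 at 261 CPM. Among the other epithelial members the Vehicle mean per kb ran from 0.0884 CPM for Ovol1 to 24.8 CPM for Spint2. Among the EMT factors the order per kb in Vehicle was Snai1 (36.1 CPM), Twist1 (21.7), Zeb2 (6.92), Zeb1 (1.84), Twist2 (1.16) and Snai2 (0.704). This order depends on the lengths used, with 19942 bases for Zeb2. Without division by length, Zeb2 was highest (138 CPM), above Snai1 (58.5 CPM) and Twist1 (35.3 CPM). Cdh2 was low, at 0.173 CPM per kb. Of all members, Krt5 was the one with a count of 0, in PI3Ki replicate 2.

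**Figure D1:**
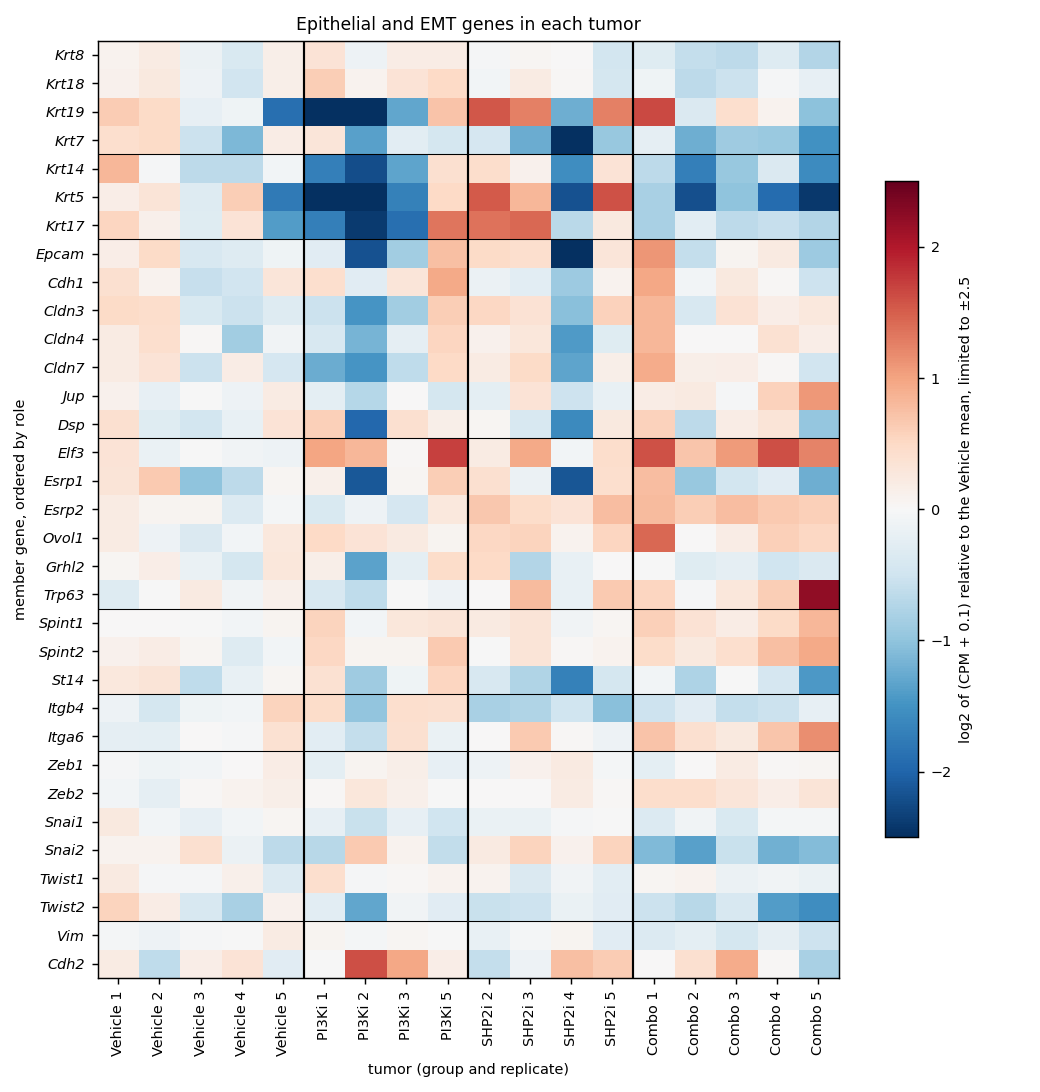
Each row is a member gene and each column a tumor; color gives log2 of CPM plus 0.1 relative to the Vehicle mean, limited to ±2.5, with lines between groups and roles. Elf3 is above the Vehicle mean in all 5 Combo tumors, and most epithelial rows are below it in PI3Ki replicate 2 and SHP2i replicate 4, as they are in Vehicle replicate 4.

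In Combo against Vehicle, 8 members rose and 4 fell at an adjusted p under 0.05 (edgeR quasi-likelihood test, Benjamini-Hochberg over all genes tested). This is 8 of 33 beside 23.9% of all tested genes called higher, and 4 of 33 beside 19.7% called lower. The share of members called higher was close to that of all genes, and the share called lower was not above it. The median log2 fold change was 0.02 over the members and 0.02 over all tested genes. The epithelial members had 7 higher and 1 lower of 25 with a median of 0.22, and the EMT and mesenchymal members 1 higher and 3 lower of 8 with a median of -0.11. Within the epithelial members, 4 of 6 regulators and both protease inhibitors rose, and Krt8 fell. Among these regulators is Ovol1, which passed the filter only through treated tumors. Without Combo replicate 5, or without Vehicle replicate 1, 2 or 4, the regulators called were 2 of 6, since the calls of Trp63 and Ovol1 were both lost. Levels below are TMM-scaled CPM per tumor, in the order of the replicate numbers, with mean ± SD. P-values weigh the difference between group means against the spread between tumors.

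Of the 6 epithelial regulators, 4 rose in Combo. Elf3, an ETS-family transcription factor of epithelia (chr1:135253574-135258472), stood at 5.96, 4.15, 4.67, 4.39 and 4.32 CPM in Vehicle, at 9.34, 8.44, 4.803 and 15.6 in PI3Ki, at 5.39, 9.13, 4.499 and 6.401 in SHP2i, and at 14.4, 7.69, 9.87, 14.6 and 11.3 in Combo. All 5 Combo tumors were above all 5 Vehicle tumors, with means of 11.6 ± 2.97 CPM in Combo and 4.695 ± 0.729 CPM in Vehicle. The log2 fold change was 1.30 ± 0.268 (SE, adjusted p = 0.000966), the largest rise among the members. Esrp2, which promotes epithelial splicing (chr8:106130319-106137193), stood at 4.25, 3.83, 3.84, 2.87 and 3.53 CPM in Vehicle, at 2.795, 3.36, 2.72 and 4.402 in PI3Ki, at 5.87, 5.06, 4.67 and 6.36 in SHP2i, and at 6.39, 5.63, 6.32, 5.79 and 5.58 in Combo. Again no Combo tumor overlapped a Vehicle tumor, and the log2 fold change was 0.70 ± 0.151 (SE, adjusted p = 0.00143). Elf3 and Esrp2 have exons that overlap genes on the other strand, as do Ovol1, Esrp1, Grhl2, Krt8, Krt7, Krt5, Cldn3, Dsp, Itgb4, Zeb1, Zeb2 and Twist2, and whether counting used strand is not given in the sources used here.

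Trp63 encodes the basal-cell factor p63 (chr16:25683763-25892088). It stood at 5.17, 6.45, 7.63, 6.07 and 7.07 CPM in Vehicle, at 4.87, 4.12, 6.47 and 5.91 in PI3Ki, at 6.56, 11.3, 5.67 and 10.2 in SHP2i, and at 9.497, 6.35, 7.91, 10.02 and 30.4 in Combo. Combo replicate 5 was far above all other tumors, and Combo replicate 2 lay within the Vehicle range. The log2 fold change was 0.98 ± 0.343 (SE, adjusted p = 0.0278), and without Combo replicate 5 it was 0.38 with an adjusted p of 0.164. The call was also lost without Vehicle replicate 1, 2 or 4 (adjusted p 0.0678, 0.0546 and 0.054). Ovol1, a zinc finger factor that opposes EMT, was the least abundant member per kb. It stood at 0.369, 0.274, 0.218, 0.287 and 0.393 CPM in Vehicle, at 0.479, 0.4199, 0.378 and 0.326 in PI3Ki, at 0.483, 0.502, 0.333 and 0.492 in SHP2i, and at 1.01, 0.313, 0.367, 0.518 and 0.487 in Combo, with as few as 5 counts in a Vehicle tumor. All Vehicle tumors had 5 to 9 counts of Ovol1, under the filter's minimum of 10, so it passed only through treated tumors. With only Vehicle and Combo tumors fitted, Ovol1 did not pass and was not tested. Its log2 fold change was 0.80 ± 0.31 (SE, adjusted p = 0.0462), and the call was kept in 4 of 17 alternatives. Without Combo replicate 1, the highest tumor, the adjusted p was 0.259. It was also lost without Combo replicate 4 or 5, or Vehicle replicate 1, 2, 3 or 4 (adjusted p 0.0565 to 0.106). Esrp1 (log2 fold change -0.26 ± 0.519 (SE)) and the grainyhead factor Grhl2 (-0.28 ± 0.277) were not called.

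Matriptase (St14) is a membrane protease that HAI-1 (Spint1) and HAI-2 (Spint2) inhibit, and both inhibitors rose in Combo. Spint1 (chr2:119237360-119249535) stood at 31.6, 31.3, 30.9, 29.9 and 32.5 CPM in Vehicle, at 46.3, 29.9, 38.2 and 39.3 in PI3Ki, at 36.5, 39.1, 29.6 and 32.4 in SHP2i, and at 47.5, 40.2, 35.7, 43.8 and 55.4 in Combo. Vehicle tumors lay within 29.9 to 32.5 CPM, and every Combo tumor was above them. The log2 fold change was 0.51 ± 0.119 (SE, adjusted p = 0.0024). Spint2 (chr7:29256330-29282059), whose promoter with 3 motifs is printed above, stood at 122, 129, 116, 90.6 and 108 CPM in Vehicle, at 161, 118, 118 and 178 in PI3Ki, at 113, 141, 115 and 119.8 in SHP2i, and at 155, 135, 151, 191 and 219 in Combo. Combo and Vehicle again did not overlap, with a log2 fold change of 0.59 ± 0.144 (SE, adjusted p = 0.00347). The protease St14 was not called, at 13.98 ± 3.48 CPM in Vehicle and 10.2 ± 3.68 CPM in Combo.

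Of the chains of the hemidesmosome integrin, alpha6 rose in Combo and beta4 was not called. Itga6, the alpha6 chain (chr2:71786886-71858427), stood at 144, 143, 169.8, 165 and 220.3 CPM in Vehicle, at 140.3, 111, 222 and 149.6 in PI3Ki, at 170.1, 264, 173 and 155 in SHP2i, and at 277, 221, 199.5, 272 and 379 in Combo. Among Combo tumors replicate 3 alone was below the highest Vehicle tumor, and the log2 fold change was 0.68 ± 0.203 (SE, adjusted p = 0.0123). Its partner Itgb4, the beta4 chain (chr11:115974725-116008412), stood at 93.5, 74.6, 93.8, 96.8 and 149 CPM in Vehicle, at 139.9, 50.9, 135 and 133 in PI3Ki, at 57.7, 60.3, 71.7 and 49.4 in SHP2i, and at 70.4, 83.6, 67.2, 69.6 and 87.6 in Combo. In Combo against Vehicle Itgb4 was not called, with a log2 fold change of -0.42 ± 0.223 (SE, adjusted p = 0.136). The difference between the chains was not tested.

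Of the 7 keratins, 0 were called higher in Combo against Vehicle and 1 was called lower (by edgeR; DESeq2 called 0 higher and 2 lower, and at an unadjusted p under 0.05 edgeR had 0 higher and 2 lower). Krt8, the type II keratin of simple epithelia (chr15:101996711-102004342), stood at 597, 643, 505, 431 and 619 CPM in Vehicle, at 711, 514, 632 and 637 in PI3Ki, at 551, 577, 566 and 405 in SHP2i, and at 451, 372, 357, 449 and 336 in Combo. Combo tumors were low, and 3 of 5 were below the lowest Vehicle tumor. The log2 fold change was -0.51 ± 0.132 (SE, adjusted p = 0.00503). Its filament partner Krt18 stood at 404, 441, 343, 268 and 417 CPM in Vehicle, at 573, 399.5, 472 and 530.2 in PI3Ki, at 358, 431, 382 and 276 in SHP2i, and at 346, 238, 257, 368 and 324 in Combo. Combo and Vehicle overlapped, and the log2 fold change was -0.29 ± 0.157 (SE, adjusted p = 0.146). Both keratins have processed pseudogenes that can share reads. The basal keratin Krt14 stood at 11.96, 6.53, 4.19, 4.18 and 6.37 CPM in Vehicle, at 1.96, 1.34, 2.61 and 8.76 in PI3Ki, at 9.01, 7.21, 2.21 and 8.46 in SHP2i, and at 4.202, 1.97, 3.39, 5.14 and 2.17 in Combo. Its groups overlapped, and the log2 fold change of -0.98 ± 0.484 (SE) was not called (adjusted p = 0.113). Krt7 (-0.89), Krt5 (-1.56), Krt17 (-0.64) and Krt19 (0.45) were not called either, with standard errors of 0.381 to 0.902. This depended on the model: with only Vehicle and Combo tumors fitted by edgeR, Krt7, Krt14 and Krt5 were called lower too. Their adjusted p-values were then 0.0406, 0.0398 and 0.0162. Krt5, Krt17 and Krt19 varied widely between PI3Ki tumors, with coefficients of variation of 155%, 149% and 129%.

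Of the 7 junction members, 0 were called in Combo against Vehicle by edgeR (DESeq2 called 0 higher and 0 lower, and at an unadjusted p under 0.05 edgeR had 1 higher and 0 lower). Epcam, a surface adhesion protein of epithelia, stood at 20.4, 25.7, 13.8, 14.6 and 16.97 CPM in Vehicle, at 14.9, 3.95, 9.95 and 30.9 in PI3Ki, at 25.7, 24.5, 3.17 and 22.4 in SHP2i, and at 39.2, 12.03, 19.3, 21.4 and 9.74 in Combo. All groups overlapped, and the log2 fold change was 0.15 ± 0.514 (SE, adjusted p = 0.834). Cdh1 stood at 24.1, 19.3, 12.1, 12.96 and 22.4 CPM in Vehicle, at 24.3, 14.99, 22.5 and 35.3 in PI3Ki, at 16.3, 15.2, 9.58 and 19.3 in SHP2i, and at 35.5, 17.4, 21.7, 18.7 and 12.7 in Combo. Its groups overlapped too, and the log2 fold change was 0.22 ± 0.281 (SE, adjusted p = 0.554). The claudins Cldn3, Cldn4 and Cldn7 had log2 fold changes of 0.30, 0.31 and 0.24, with standard errors of 0.321 to 0.384, and Dsp one of 0.01 ± 0.411. Jup stood at 151, 122, 139, 128 and 162 CPM in Vehicle, at 118, 85.2, 141 and 103 in PI3Ki, at 119, 178, 98.4 and 123 in SHP2i, and at 159, 163, 138, 211 and 299 in Combo. Combo replicates 4 and 5 were the highest of all tumors, and the log2 fold change was 0.47 ± 0.197 (SE, adjusted p = 0.0647), short of the threshold.

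Among the EMT factors, Snai2 and Twist2 fell and Zeb2 rose in Combo. Snai2 (Slug, chr16:14705852-14709395) is a repressor of Cdh1. It stood at 1.52, 1.53, 1.92, 1.27 and 0.872 CPM in Vehicle, at 0.839, 2.31, 1.51 and 0.897 in PI3Ki, at 1.69, 2.14, 1.54 and 2.15 in SHP2i, and at 0.613, 0.492, 0.938, 0.561 and 0.620 in Combo. Combo tumors were the lowest group, and replicate 3 alone exceeded a Vehicle tumor. The log2 fold change was -1.13 ± 0.295 (SE, adjusted p = 0.00536), from 11 counts in the lowest Combo tumor. Twist2, a basic helix-loop-helix factor (chr1:91801461-91848034), stood at 5.45, 4.19, 2.75, 2.05 and 3.97 CPM in Vehicle, at 3.04, 1.43, 3.48 and 3.02 in PI3Ki, at 2.45, 2.56, 3.25 and 2.999 in SHP2i, and at 2.495, 2.24, 2.77, 1.34 and 1.196 in Combo. The groups overlapped, and the log2 fold change was -0.87 ± 0.295 (SE, adjusted p = 0.0242). This call was lost without Vehicle replicate 1 or 2, or Combo replicate 4 or 5 (adjusted p 0.0743, 0.0561, 0.0635 and 0.0633).

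Zeb2, a zinc finger repressor of epithelial genes (chr2:44983512-45117442), moved the other way. It stood at 131, 119, 141, 147 and 152 CPM in Vehicle, at 141, 168, 152 and 137 in PI3Ki, at 139, 139, 158 and 141 in SHP2i, and at 186, 187, 169.9, 154 and 173 in Combo. All Combo tumors were above all Vehicle tumors, by a small step of 0.33 ± 0.08 (SE, adjusted p = 0.00307). Zeb2 has an antisense gene, Zeb2os, so its counts share the limit on strand. Its relative Zeb1 stood at 18.5, 17.6, 17.9, 19.03 and 21.4 CPM in Vehicle, at 15.9, 19.8, 20.9 and 16.3 in PI3Ki, at 17.2, 20.3, 22.1 and 18.3 in SHP2i, and at 15.8, 19.0, 21.9, 19.3 and 19.4 in Combo. Zeb1 was nearly level, with a log2 fold change of 0.02 ± 0.105 (SE, adjusted p = 0.914). Snai1 (-0.17 ± 0.097 (SE)) and Twist1 (-0.05 ± 0.113) were not called.

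Of the structural proteins, vimentin, the intermediate filament of mesenchymal cells, fell in Combo (Vim, chr2:13574311-13582826). It stood at 3400, 3210, 3426, 3495 and 4068 CPM in Vehicle, at 3715, 3424, 3643 and 3490 in PI3Ki, at 3113, 3401, 3703 and 2912 in SHP2i, and at 2783, 2961, 2594, 2998 and 2456 in Combo. Every Combo tumor was below every Vehicle tumor, and the log2 fold change was -0.35 ± 0.089 (SE, adjusted p = 0.00424). Host cells also express Vim. The fibroblast, macrophage and endothelial marker sums given above were lower in Combo than in Vehicle by their medians (3126 against 5370, 642 against 2410, and 249.6 against 589 CPM). The fibroblast sums of these groups overlapped. In SHP2i the 3 medians were 7238, 955 and 531.5 CPM, and Vim was not called against Vehicle (-0.10 ± 0.094 (SE)). The part of host cells in the Vim level was not tested. Cdh2 was not called (0.23 ± 0.384 (SE)).

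The calls of Elf3, Esrp2, Spint1, Spint2, Itga6, Zeb2, Krt8, Snai2 and Vim in Combo against Vehicle were kept in each of the 18 alternatives run. These left out each Vehicle and each Combo tumor in turn, changed the scaling, filter, fit or tool, and left out Combo replicates 3 and 4 or PI3Ki replicate 2 with SHP2i replicate 4. Past an absolute log2 fold change of 1, the limit of the study, were Elf3 among the higher and Snai2 among the lower members.

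**Figure D2:**
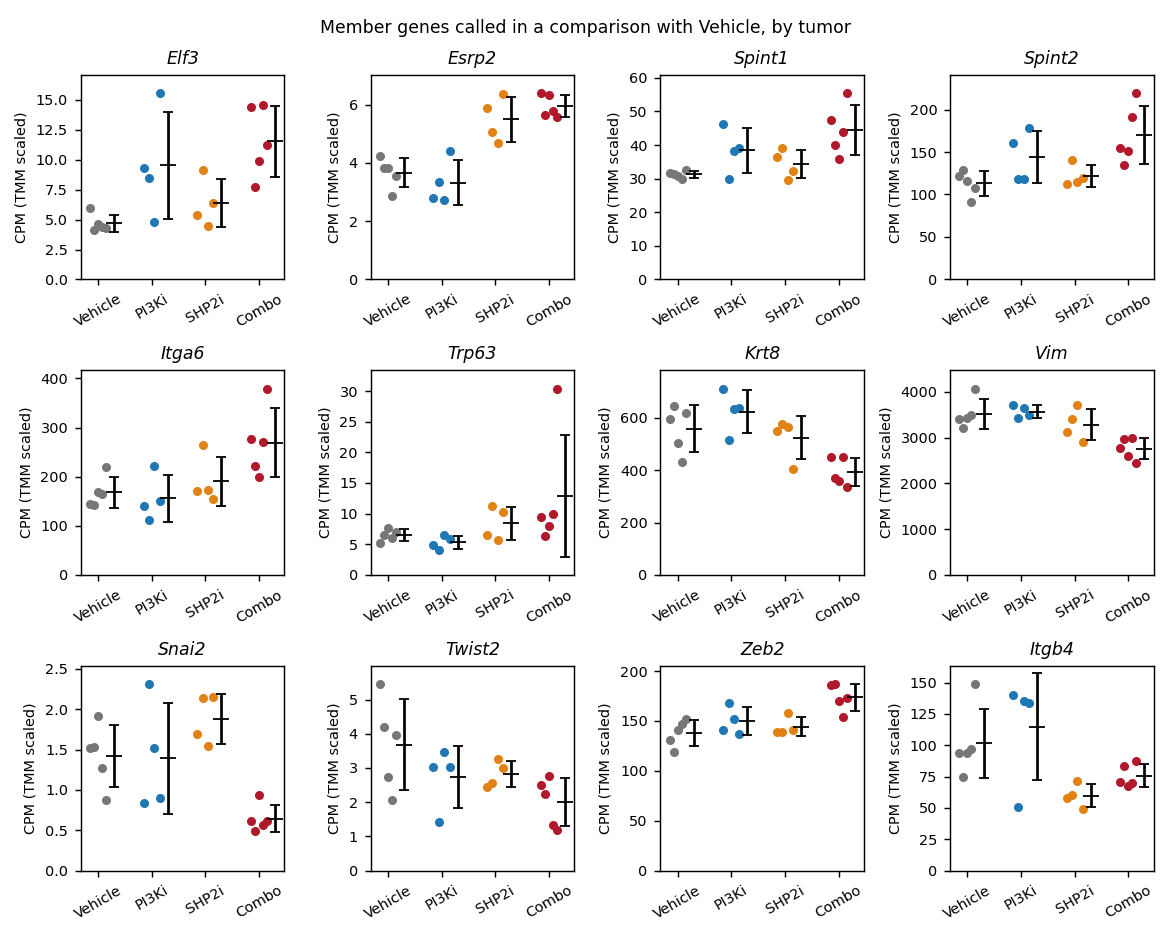
Each point is a tumor (TMM-scaled CPM on a linear axis from 0), with mean and SD beside it, for the members called in a comparison with Vehicle other than Ovol1. Combo tumors do not overlap Vehicle tumors for Elf3, Esrp2, Spint1, Spint2, Vim and Zeb2, and the high Trp63 mean in Combo comes from 1 tumor at 30.4 CPM.

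SHP2 inhibition alone left most members uncalled against Vehicle. Esrp2 rose, with a log2 fold change of 0.58 ± 0.159 (SE, adjusted p = 0.0252), and Itgb4 fell, with one of -0.76 ± 0.24 (SE, adjusted p = 0.0478) (1 of 33 each, beside 5.05% of all tested genes called higher and 6.54% called lower). For both genes the SHP2i and Vehicle tumors did not overlap. Esrp2 was at 5.49 ± 0.766 CPM in SHP2i against 3.66 ± 0.511 CPM in Vehicle, and Itgb4 at 59.8 ± 9.24 CPM in SHP2i against 102 ± 27.8 CPM in Vehicle. The Esrp2 call was lost without Vehicle replicate 4 or SHP2i replicate 2 or 5 (adjusted p 0.0617, 0.0749 and 0.0997). The Itgb4 call was lost without any 1 of Vehicle replicates 1, 3, 4 and 5 and of all 4 SHP2i tumors (adjusted p 0.0553 to 0.126). Snai2, which fell in Combo, had a log2 fold change of 0.40 ± 0.294 (SE) here and was not called. Krt7 (-1.11 ± 0.412) and St14 (-0.74 ± 0.332) were not called (adjusted p = 0.0866 and 0.149).

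In PI3Ki against Vehicle, Elf3 rose, with a log2 fold change of 1.02 ± 0.28 (SE, adjusted p = 0.0424). This was 1 of 33 beside 2.69% of all tested genes called higher. PI3Ki replicate 3 lay within the Vehicle range, and replicate 5 was the highest of all 18 tumors. The call was lost without PI3Ki replicate 1, 2 or 5, or Vehicle replicate 2, 3, 4 or 5, with the highest adjusted p of 0.183 without PI3Ki replicate 5. No member was called lower (0 of 33 by edgeR beside 2.42% of all tested genes, 1 by DESeq2, with 6 members at an unadjusted p under 0.05 in either direction). Nearest was Snai1, a repressor of Cdh1, at 45.6 ± 5.93 CPM in PI3Ki against 58.5 ± 6.83 CPM in Vehicle, with a log2 fold change of -0.36 ± 0.103 (SE, adjusted p = 0.0542). All 10 skeletal muscle markers were called higher in this comparison, and their part in the values of the members was not tested.

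**Figure D3:**
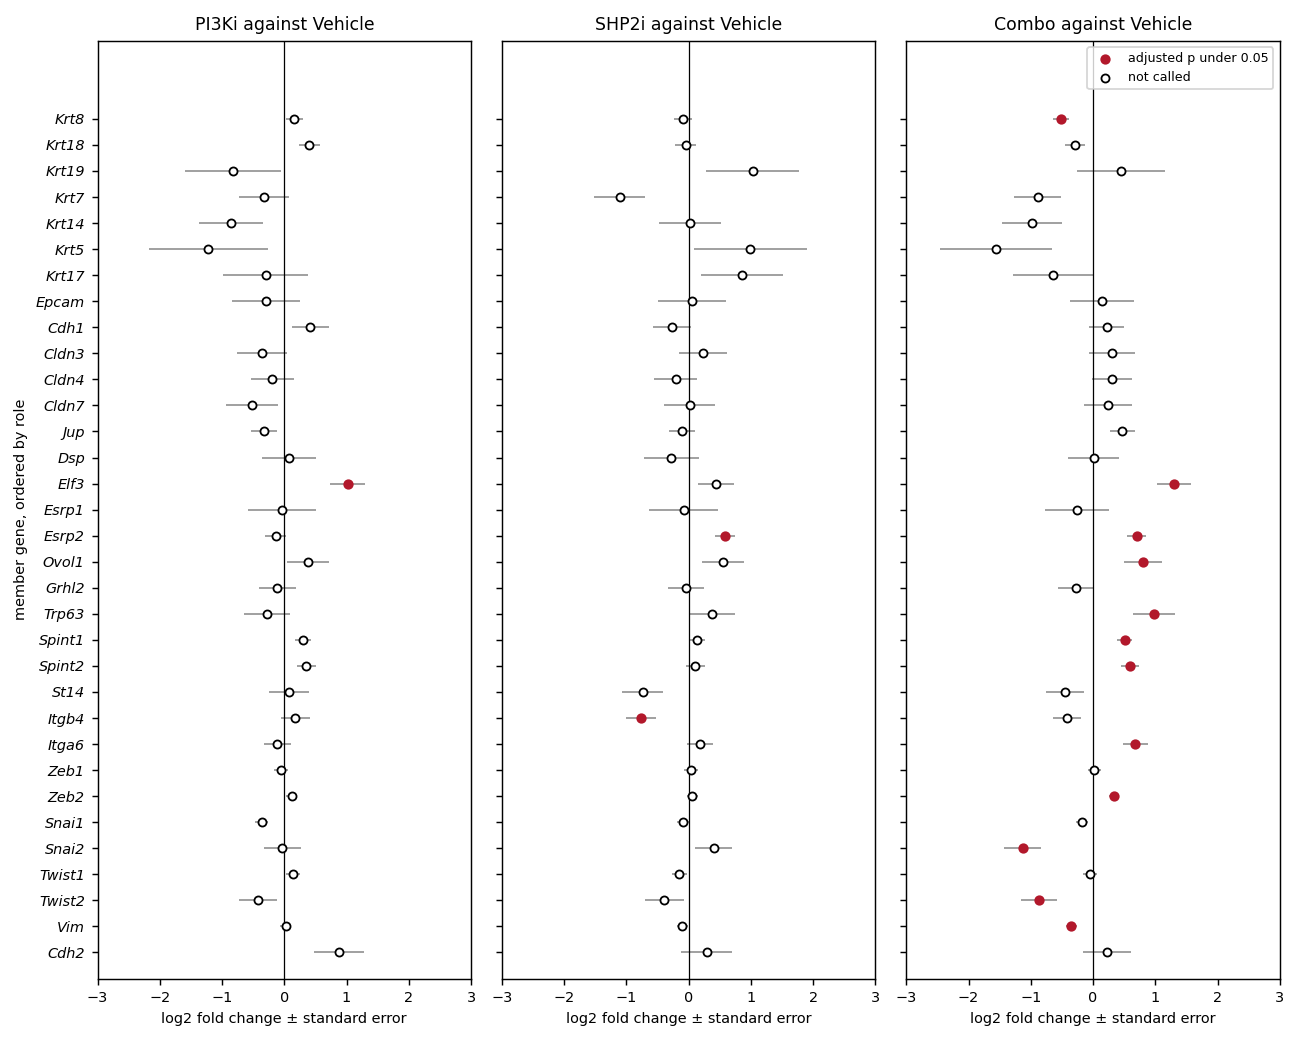
Points give the log2 fold change of each of the 33 members against Vehicle and bars its standard error, in 3 panels for PI3Ki, SHP2i and Combo; filled points passed an adjusted p under 0.05. The panels hold 1, 2 and 12 filled points, and Krt5 has the widest bar in each.

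Combo was also compared with each inhibitor alone, which asks how the members stood once the second inhibitor was added. These comparisons share the Combo tumors with the one against Vehicle and are not independent of it. Against SHP2i, Elf3 (0.86 ± 0.284 (SE), adjusted p = 0.0372), Spint1 (0.37 ± 0.126, adjusted p = 0.0432), Spint2 (0.48 ± 0.154, adjusted p = 0.0334) and Zeb2 (0.27 ± 0.085, adjusted p = 0.0317) rose. Krt8 (-0.42 ± 0.139, adjusted p = 0.0395) and Snai2 (-1.53 ± 0.306, adjusted p = 0.00229) fell. This was 4 and 2 of 33, beside 11.8% of all tested genes called higher and 10.3% called lower. For Snai2 all Combo tumors were below all SHP2i tumors, and the call was kept in 17 of 17 alternatives. The other 5 calls were kept in 6 to 9 of 17. The number of members called higher was 0 without SHP2i replicate 2 or 5 or Combo replicate 5, 1 without SHP2i replicate 4 or Combo replicate 4, and 2 without Combo replicate 1. The Krt8 call was lost without SHP2i replicate 2, 3 or 4, or Combo replicate 2, 3 or 5 (adjusted p 0.0668 to 0.102).

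Against PI3Ki, 4 members rose in Combo and 4 fell, beside 19.9% of all tested genes called higher and 17.8% called lower. Jup (0.79 ± 0.212 (SE), adjusted p = 0.00742), Esrp2 (0.84 ± 0.163, adjusted p = 0.000795), Trp63 (1.26 ± 0.372, adjusted p = 0.0133) and Itga6 (0.79 ± 0.218, adjusted p = 0.00886) were higher. Krt8 (-0.67 ± 0.139, adjusted p = 0.00135), Krt18 (-0.69 ± 0.166, adjusted p = 0.00377), Vim (-0.37 ± 0.094, adjusted p = 0.00511) and Snai2 (-1.10 ± 0.309, adjusted p = 0.0101) were lower. For Krt8, Krt18 and Vim all Combo tumors were below all PI3Ki tumors, and for Esrp2 all were above. Trp63 in Combo had its highest tumor by far in replicate 5 (30.4 CPM, others 6.35 to 10.02), without which its log2 fold change was 0.66 and still called. Without PI3Ki replicate 2 the Trp63 and Snai2 calls were lost (adjusted p 0.0515 and 0.0601), and without PI3Ki replicate 5 the number of members called higher was 8.

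The interaction asks whether Combo differed from the sum of both single steps on the log2 scale. No member was called by edgeR (0 of 33, beside 0.864% of all tested genes called higher and 1.61% called lower), 4 had an unadjusted p under 0.05, and DESeq2 called 1, Snai2. In edgeR the interaction of Snai2 was -1.50 ± 0.426 (SE, adjusted p = 0.0745). It passed the threshold without PI3Ki replicate 1 (adjusted p = 0.0474) or Combo replicate 3 (adjusted p = 0.0399). The other members with an unadjusted p under 0.05 were Jup (0.91 ± 0.298 (SE)), Krt8 (-0.57 ± 0.196) and Krt18 (-0.64 ± 0.235).

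Several epithelial members differed widely between tumors of 1 treatment, often in the same tumors. In PI3Ki replicate 2, 21 of 25 epithelial members were at the lowest level of their group, where 29.87% of all tested genes were lowest. In SHP2i replicate 4 this held for 19 of 25, beside 23.71% of all tested genes. At the other end, 15 of 25 were highest in PI3Ki replicate 5 (20.01% of all tested genes) and 14 of 25 in Combo replicate 1 (18.66%). These tumors were singled out after their values were seen, so the counts are a description with no test. Epcam was at 3.95 CPM in PI3Ki replicate 2 and at 30.9 CPM in PI3Ki replicate 5. Krt19 was at 2.39 and 64.8 CPM in the same tumors. The fibroblast marker sum was highest of all tumors in PI3Ki replicate 2 (15500 CPM) and next in SHP2i replicate 4 (12190 CPM), and in Combo replicate 1 it was lowest (2372 CPM). PI3Ki replicate 2 also had the highest macrophage, neutrophil and pericyte sums of all tumors (3424, 2856 and 756 CPM). Low epithelial members were also seen at low fibroblast sums: in Combo replicate 5 (3126 CPM) 11 of 25 were lowest of their group, beside 19.74% of all tested genes, and in Vehicle replicate 4 (4329 CPM) 10 of 25, beside 15.76%. The most abundant epithelial members, Krt8 and Krt18, were at 566 and 382 CPM in SHP2i replicate 4, within the Vehicle range, and Itgb4 was highest of its group there. The sum of 9 markers of differentiated mammary epithelium was 14.5 CPM in PI3Ki replicate 2, 27.0 CPM in SHP2i replicate 4 and 91.6 CPM in Combo replicate 1. The part of either in the member levels was not tested. Leaving out PI3Ki replicate 2 and SHP2i replicate 4, an alternative chosen after seeing the data, ended 9 calls and added 6. In Combo against Vehicle, Ovol1 was lost (log2 fold change 0.80 with and without these tumors), and Krt7 (-0.88) and Itgb4 (-0.43) were called lower. In PI3Ki against Vehicle, Elf3 was lost (1.02 to 1.08) and Spint1 (0.41) was called higher. In Combo against SHP2i, Elf3 (0.86 to 0.73), Spint1 (0.37 to 0.31), Spint2 (0.48 to 0.45) and Krt8 (-0.42 to -0.38) were lost, and Krt5 (-2.92) was called lower. In Combo against PI3Ki, Trp63 (1.26 to 1.14), Itga6 (0.79 to 0.64) and Snai2 (-1.10 to -0.75) were lost, Itgb4 (-0.86) was called lower and Zeb2 (0.27) higher. The 9 lost calls had adjusted p-values of 0.0509 to 0.111, and all kept their direction.

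**Figure D4:**
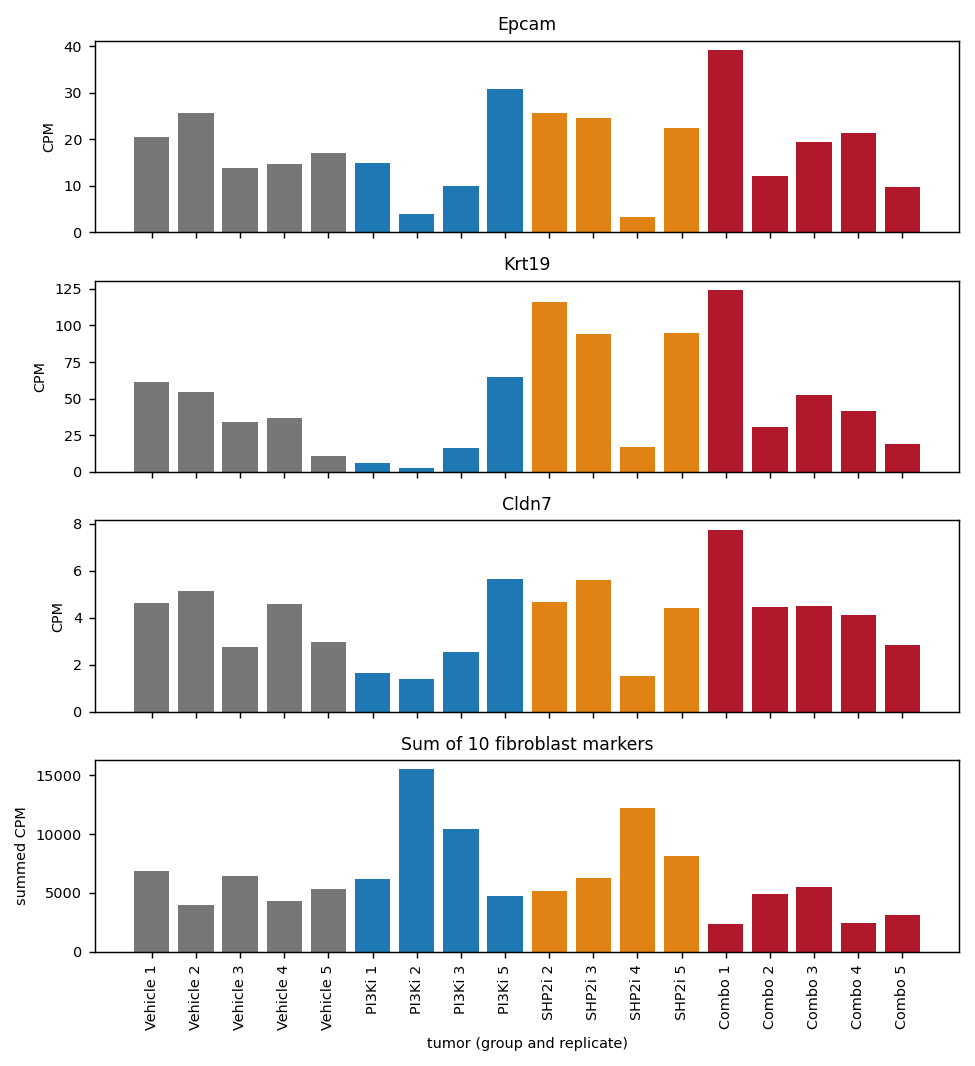
Bars give TMM-scaled CPM of Epcam, Krt19 and Cldn7 and the summed CPM of 10 fibroblast markers in each of the 18 tumors, colored by group. The 3 epithelial genes were chosen after their values were seen. Epcam and Cldn7 are lowest in PI3Ki replicate 2 and SHP2i replicate 4, the tumors with the highest fibroblast sums (15500 and 12190 CPM). Krt19 is lowest in PI3Ki replicate 2 (2.39 CPM). It is lower in PI3Ki replicates 1 and 3 (6.11 and 16.04 CPM) and Vehicle replicate 5 (10.6 CPM) than in SHP2i replicate 4 (16.9 CPM). The fibroblast sums of these tumors are 6198 and 10480 CPM for PI3Ki replicates 1 and 3, and 5370 CPM for Vehicle replicate 5.

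Ratios between members of 1 tumor do not depend on library scaling. The log2 ratio of Snai2 to Snai1 was -5.40 ± 0.51 in Vehicle, -5.15 ± 0.78 in PI3Ki, -4.88 ± 0.27 in SHP2i and -6.36 ± 0.48 in Combo (mean ± SD). The ratio of Vim to Epcam ran from 6.97 to 7.96 in Vehicle and from 6.15 to 7.98 in Combo, and reached 9.76 in PI3Ki and 10.19 in SHP2i. That of Zeb1 to Cdh1 was 0.11 ± 0.43 in Vehicle and -0.07 ± 0.66 in Combo. Of the basal-to-luminal ratios, Krt14 to Krt8 was -6.49 ± 0.49 in Vehicle, -7.80 ± 1.12 in PI3Ki, -6.46 ± 1.07 in SHP2i and -6.95 ± 0.45 in Combo. Krt17 to Krt8 was -8.66 ± 0.94 in Vehicle, -10.05 ± 1.85 in PI3Ki, -7.80 ± 1.04 in SHP2i and -8.65 ± 0.32 in Combo. Krt5 to Krt8 was -6.41 ± 1.09 in Vehicle, -5.68 ± 1.94 in SHP2i and -7.42 ± 0.69 in Combo. It was not taken in PI3Ki, where 1 tumor had a Krt5 count of 0. For Snai2 to Snai1 the Combo tumors ran from -6.81 to -5.58 and the Vehicle tumors from -6.12 to -4.72, so the groups overlapped. These ratios are a description and were not tested.

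Related genes of the same programs were counted in Combo against Vehicle, where 23.9% of all tested genes were called higher and 19.7% lower. Of 24 other junction and polarity genes 10 rose and 3 fell (the latter a share under that of all genes), with a median log2 fold change of 0.35 beside 0.02 over all tested genes. The tight junction scaffold Tjp1 rose from 219.9 ± 33.4 to 568.4 ± 104 CPM (log2 fold change 1.37 ± 0.169 (SE), adjusted p = 1.07e-05). The polarity protein Pard6b (0.73 ± 0.144) and beta-catenin, Ctnnb1 (0.44 ± 0.09), the highest in level of the list, rose as well. Of 21 other epithelial regulators and surface proteins tested, 7 rose and 1 fell, the latter a share under that of all genes, with a median of 0.50. Gata3, a luminal transcription factor, rose from 122 ± 10.7 to 283 ± 43.9 CPM (1.22 ± 0.128, adjusted p = 2.18e-06), and Klf5 (0.93 ± 0.161) and Trps1 (0.80 ± 0.14) rose too. In SHP2i against Vehicle, Pard6b (0.62 ± 0.152 (SE), adjusted p = 0.0145) and Gata3 (0.46 ± 0.133, adjusted p = 0.0336) were also called higher. Tjp1, Ctnnb1, Klf5 and Trps1 were not called there.

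Of 17 desmosome and hemidesmosome genes tested, 3 rose and 3 fell, with a median of 0.05, so neither share was above that of all genes (23.9% higher and 19.7% lower). The laminin-332 chains Lama3 (-2.02 ± 0.351 (SE)) and Lamb3 (-1.80 ± 0.482) fell, and dystonin, Dst (0.79 ± 0.211), rose, while Itga3, the most abundant of the list, was not called (0.26 ± 0.129). Among 10 other keratins tested, Krt78 (2.94 ± 0.694) rose, and 3 fell, with Krt23 (-2.0 ± 0.454) and Krt80 (-0.61 ± 0.18) among them. The median of these keratins was -0.46. Of 29 other genes of the mesenchymal program tested, 13 fell and 7 rose, the latter a share close to that of all genes, with a median of -0.26. The EMT inducer Tgfb1 fell from 162 ± 4.34 to 90.9 ± 6.24 CPM (-0.84 ± 0.068, adjusted p = 1.84e-07). Its target Tgfbi (-2.43 ± 0.282) and the fibronectin receptor chain Itga5 (-0.76 ± 0.104) fell too, while fibronectin, Fn1, the most abundant of the list, was not called (0.09 ± 0.252). In SHP2i against Vehicle, Tgfb1 (-0.66 ± 0.072 (SE), adjusted p = 3.08e-05) and Tgfbi (-1.47 ± 0.294, adjusted p = 0.00431) were also called lower. So were Lama3 (-1.15 ± 0.363, adjusted p = 0.0489), Lamb3 (-2.14 ± 0.531, adjusted p = 0.0153) and Krt23 (-1.48 ± 0.467, adjusted p = 0.0484). Dst, Itga3, Krt78, Krt80, Itga5 and Fn1 were not called there. The related genes named were not called in PI3Ki against Vehicle.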

How the data were processed

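Tumor RNA of 18 mice was measured by RNA-seq, and tumors were grouped by the treatment in the sample labels. The authors prepared directional libraries from poly(A) RNA, removed adaptors from the read pairs with cutadapt and used STAR for alignment, with GRCm38 named as the mouse build. Each deposited table lists raw counts by Entrez Gene identifier. The strand setting of the counting is not given in the sources used here. Symbols were matched to 22760 of 22792 identifiers, and the 32 without a symbol (0.0193% of the counts) were not used for members.

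Counts were fitted with edgeR 4.0.16 (R 4.3.3) after filterByExpr (minimum count 10, minimum total count 15), with TMM scaling and 1 model with a mean per group over all 18 tumors (common biological coefficient of variation 0.2125). Quasi-likelihood F tests were adjusted by the Benjamini-Hochberg method over 15282 genes, and genes were called at an adjusted p under 0.05. The step was tested on simulated data, with 100 genes changed by a log2 of 1 and 100 by a log2 of 2 among 15282. In Combo against Vehicle, 76% of those changed by a log2 of 1 were recovered, with 10 false calls. Far fewer genes changed there than were called in the tumors, and smaller changes were not simulated. The recovery for most members is therefore not known.

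The members, gene lists and tests were chosen with earlier results of these data known. Every member was accounted for, with values per tumor for those called in any comparison and for Krt8, Krt14, Epcam, Cdh1, Vim, Zeb1 and Snai2. Of each related list, the 3 called genes with the smallest p in Combo against Vehicle and the gene with the highest level were named. Loxl2 and Flg were not analysed here. The promoter search left out the chromosome of Zeb1 and Cdh2, for the members and for all genes. Snai2 had no window either. Alternatives were RLE and upper quartile scaling, DESeq2 1.42.0, no filter, only the groups compared, the replicate number as a block, each tumor of the groups compared left out, and pairs of tumors left out. Leaving out PI3Ki replicate 2 with SHP2i replicate 4 was chosen after seeing the data.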

Additional observations from a re-analysis of the deposited data

Results flagged for a closer look

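In 11 of 132 sets of a member and a group, 1 tumor lay far from the others by Dixon's criterion, which chance alone meets in about 1 in 20 groups. SHP2i replicate 4 was low for Epcam (3.17 CPM, others 22.4 to 25.7) and Ovol1 (0.333 CPM, others 0.483 to 0.502), and high for Zeb2 (158 CPM, others 139 to 141). PI3Ki replicate 5 was high for Krt14 (8.76 CPM, others 1.34 to 2.61) and Krt17 (4.04 CPM, others 0.21 to 0.399), and PI3Ki replicate 2 was low for Itgb4 (50.9 CPM, others 133 to 139.9). Combo replicate 5 was high for Trp63 (30.4 CPM, others 6.35 to 10.02), and Combo replicate 3 for Snai2 (0.938 CPM, others 0.492 to 0.62). SHP2i replicate 5 was low for Krt8 (405 CPM, others 551 to 577), SHP2i replicate 3 high for Itga6 (264 CPM, others 155 to 173), and Vehicle replicate 1 high for Elf3 (5.96 CPM, others 4.15 to 4.67).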

How the results depend on the processing

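Counts of members called moved by over 1.5 times as follows. With only the groups compared, Combo against Vehicle had 8 lower, with Krt7, Krt14, Krt5 and Itgb4 added. In that setting PI3Ki against Vehicle had 0 higher and Combo against SHP2i 2 higher. Without the filter, SHP2i against Vehicle had 0 lower and Combo against SHP2i 2 higher. RLE scaling, upper quartile scaling and DESeq2 each gave 1 lower in PI3Ki against Vehicle, and DESeq2 gave 2 lower in SHP2i against Vehicle and 1 lower in the interaction. Without Combo replicates 3 and 4, Combo against SHP2i had 2 higher and 1 lower, and without PI3Ki replicate 2 and SHP2i replicate 4 it had 1 higher. The cause was not tested.

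With 1 tumor left out, members called higher and lower ranged over 6 to 9 and 3 to 6 in Combo against Vehicle, and over 0 to 1 in each direction in SHP2i and in PI3Ki against Vehicle. They ranged over 0 to 5 and 1 to 3 in Combo against SHP2i, 4 to 8 and 4 to 4 in Combo against PI3Ki, and 0 to 0 and 0 to 1 in the interaction. Krt17 turned positive in PI3Ki against Vehicle without PI3Ki replicate 2 (0.05), without PI3Ki replicate 3 (0.02) and without PI3Ki replicate 2 and SHP2i replicate 4 (0.06), and in Combo against PI3Ki without PI3Ki replicate 5 (1.59, adjusted p = 0.0324). Its values with 1 tumor left out reached down to -2.25 in the former and -0.72 in the latter.

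Over all tested genes, same-numbered tumors of different groups deviated together no more than other pairs did. Correlations r were -0.42 to 0.33 in 24 same-numbered pairs (median 0.02) and -0.44 to 0.45 in 97 other pairs (median -0.01). The sample titles give only a number, and the main model used no pairing. The replicate block ended 7 calls over all comparisons. With it, SHP2i against Vehicle had 0 lower, PI3Ki against Vehicle 0 higher and Combo against SHP2i 0 higher.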
